A study of Mus musculus with 1 sample.

Results

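The cytosolic ribosomal protein genes were followed in blood T cells of 1 vehicle-treated mouse with small cell lung cancer (SCLC). A gene was a member when its symbol began with Rpl or Rps and a digit, or with Rplp, and was neither an Rps6k kinase nor a processed pseudogene marked -ps. This gave 85 of the 32285 genes in the count matrix, of which 84 had at least 1 UMI, the tag that marks 1 captured RNA molecule. Among the 85 were 30 proteins of the small subunit, 46 of the large subunit and 9 like-named genes, which are paralogues or, for Rps19bp1, a binding protein. The mouse carried the autochthonous SCLC model on a C57BL/6 background, in which Rb1 and Trp53 are conditionally deleted after an adenovirus with Cre has been given through the trachea. The virus is delivered to the airway, not to blood T cells. Vehicle was PBS, given every 3 days, and the age of this mouse is not given in the sources used here. From 150 µl of blood, T cells were kept by depleting the other cells with a pan T cell kit, and gene expression and T cell receptors were read from the same droplet barcodes. There was 1 library, so no difference below was tested against replicates. Intervals are exact 95% intervals that cover counting error only.

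Ribosomes are built from ribosomal RNA and a fixed set of proteins, in a small subunit that reads the mRNA and a large subunit that forms the peptide bonds. The proteins are needed in equal numbers, apart from the stalk of Rplp0, Rplp1 and Rplp2, which recruits the elongation factors. Their mRNAs typically start with a 5′ terminal oligopyrimidine (TOP) tract, a C followed by C and T bases, through which mTOR signalling sets their translation. Resting blood T cells keep few ribosomes and build many more once they are activated.

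Start sites in the RefSeq annotation (GRCm38.p6) were read for the 65 members found in its table, which has 77 windows for them. By a rule that asked for a C within 2 bases of the annotated start and at least 4 C or T bases behind it, 22 of the 65 genes (33.8%) had a TOP tract, against 10.6% of all 27025 genes. The letters CCGGAAG, searched on both strands from 250 bases before to 50 bases after the start, were found in 38.5% of the member genes and in 9.93% of all genes. AAGATGG was found in 15.4% against 7.28%, and TATAAA in 10.8% against 15.7%. The windows below run from 10 bases before the annotated start to 20 bases from it, so that the 11th letter is the start, and capitals mark the TOP tract. They show 3 of the most abundant members with a tract (Rps24, Rps27, Rps15a), 2 stalk genes (Rplp0, Rplp2), members from the table whose part in the pool differed between groups, and the paralogues described below. Where a gene had several starts, the most upstream is shown.
Rps24 (chr14:24490668-24490697, plus strand): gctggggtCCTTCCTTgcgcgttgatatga
Rps27 (chr3:90213629-90213658, minus strand): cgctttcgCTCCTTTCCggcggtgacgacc
Rps15a (chr7:118116128-118116157, minus strand): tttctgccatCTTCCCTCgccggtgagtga
Rplp2 (chr7:141447641-141447670, plus strand): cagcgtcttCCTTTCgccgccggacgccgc
Rpl13a (chr7:45128726-45128755, minus strand): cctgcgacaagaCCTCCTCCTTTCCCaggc
Rps12 (chr10:23787190-23787219, minus strand): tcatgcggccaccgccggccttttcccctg
Rplp0 (chr5:115559457-115559486, plus strand): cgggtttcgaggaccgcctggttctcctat
Rpl27 (chr11:101442235-101442264, plus strand): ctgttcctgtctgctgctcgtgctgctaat
Rps19 (chr7:24884582-24884611, plus strand): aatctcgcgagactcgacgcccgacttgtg
Rps23 (chr13:90923112-90923141, plus strand): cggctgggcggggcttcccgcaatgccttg
Rpl5 (chr5:107900518-107900547, plus strand): cgtcgcttgcgtgctggtggtgctacatac
Rpl7l1 (chr17:46782637-46782666, minus strand): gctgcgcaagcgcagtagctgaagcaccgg
Rps27rt (chr9:114982720-114982749, minus strand): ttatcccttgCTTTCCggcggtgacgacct
Rps27l (chr9:66946076-66946105, plus strand): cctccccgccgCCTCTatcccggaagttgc
Rpl36a (chrX:134585644-134585673, plus strand): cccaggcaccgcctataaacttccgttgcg
Rpl36al (chr12:69184048-69184077, minus strand): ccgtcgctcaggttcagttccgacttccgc
Rps27 and Rps27rt shared an identical stretch of 38 of the 50 bases behind their starts. Rps12, Rplp0, Rpl27, Rps19, Rps23, Rpl5, Rpl7l1, Rpl36a and Rpl36al had no tract by this rule at the annotated start, and nothing follows from that about their true starts.

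Members were counted over the 1600 barcodes with most UMIs, which are those above a limit of about 1300 UMIs. They held 7974264 UMIs, and the matrix lists 300213 barcodes in all. Barcodes were placed by their markers into 4 groups that do not overlap. Cd4 barcodes (n = 355) had a Cd4 UMI and none of Cd8a, Cd8b1, Cd79a or a granzyme, and Cd8 barcodes (n = 598) had Cd8a or Cd8b1 and none of the others. Granzyme barcodes (n = 145) had Gzma, Gzmb or Gzmk and no Cd79a, and 108 of them also had a Cd8 UMI without Cd4. Cd79a barcodes (n = 89) had Cd79a, a B cell receptor chain, and none of the other markers, and 413 barcodes fell in no group. Summed over Cd3d, Cd3e, Cd3g, Trac and Trbc2, the T cell markers had 27.6, 23.4 and 31.7 UMIs per 10000 in the Cd4, Cd8 and granzyme groups and 0.710 in the Cd79a group. The B cell markers had 73.9 in the Cd79a group and 0.883 to 1.47 in the others, and NK cell markers 3.53 in the granzyme group against 0.0592 to 0.169 elsewhere. Doublets were not removed, and 49 barcodes had both Cd4 and Cd8 UMIs.

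Ribosomal protein mRNA took 1859518 UMIs, or 23.3% of all UMIs in these barcodes. UMIs count molecules, so levels are not divided by transcript length. The most abundant member was Rps24, a small subunit protein, with 59991 UMIs, found in 89.9% of the barcodes. It was followed by Rps29 with 49224 UMIs, Rps27 with 43812 and Rpl13 with 41361. The 10 leading members, among them also Rps20, Rps15a, Rpl41, Rps16 and Rps28, made up 22.8% of the ribosomal protein UMIs, and 8 of these 10 belong to the small subunit. Although the proteins are used in equal numbers, several of the 76 standard subunits were far below the median of 22178 UMIs over the 85 members, such as Rpl31 with 4198 UMIs, Rps25 with 5086 and Rpl23a with 5116. The like-named genes were rare and together held 0.582% of the ribosomal protein UMIs. Rpl36al had 5166 UMIs and Rpl22l1 4353, whereas Rps27l had 563, Rpl7l1 341, Rps27rt 235 and Rps19bp1 160. The germline or muscle paralogues were at the floor, with 5 UMIs of Rpl3l, 2 of Rpl39l and 0 of Rpl10l, which allows up to 0.00376 UMIs per 10000.

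The share of ribosomal protein UMIs in a barcode ran from 0.172% to 53.1%, with a median of 17.1%, and the barcodes formed a low and a high set with few between them. In 618 barcodes (38.6%) the share was under 10%, with a pooled share of 2.87% (2.85% to 2.90%). In the other 982 it was 29.7% (29.6% to 29.7%) pooled. Only 93 barcodes lay between 5% and 10% and 101 between 10% and 15%. The low set differed in other measures too. Its median UMI total was 2854.5 against 5338.5, the nuclear RNA Malat1 took 2.31% of its UMIs against 0.771%, mitochondrial transcripts took 2.80% against 1.53%, and a T cell receptor clonotype was found for 24.1% against 83% of the barcodes. The UMI total includes the members, and Malat1 and mitochondrial values are shares of all UMIs. Part of these 3 differences is therefore built into the split. Counted over the UMIs of other genes only, the median totals were 2790 and 3956. The part of these measures in the low share was not tested. When each barcode was thinned to the UMI limit, a median of 23 members was found in the low set and 73 in the other, against 39 and 78 before thinning. At equal depth the number of members found depends on the member share that set the barcodes apart, so it is no separate finding. In barcodes with 10 to 50 UMIs, which stand for free RNA, the share was 15.7%.

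**Figure D1:**
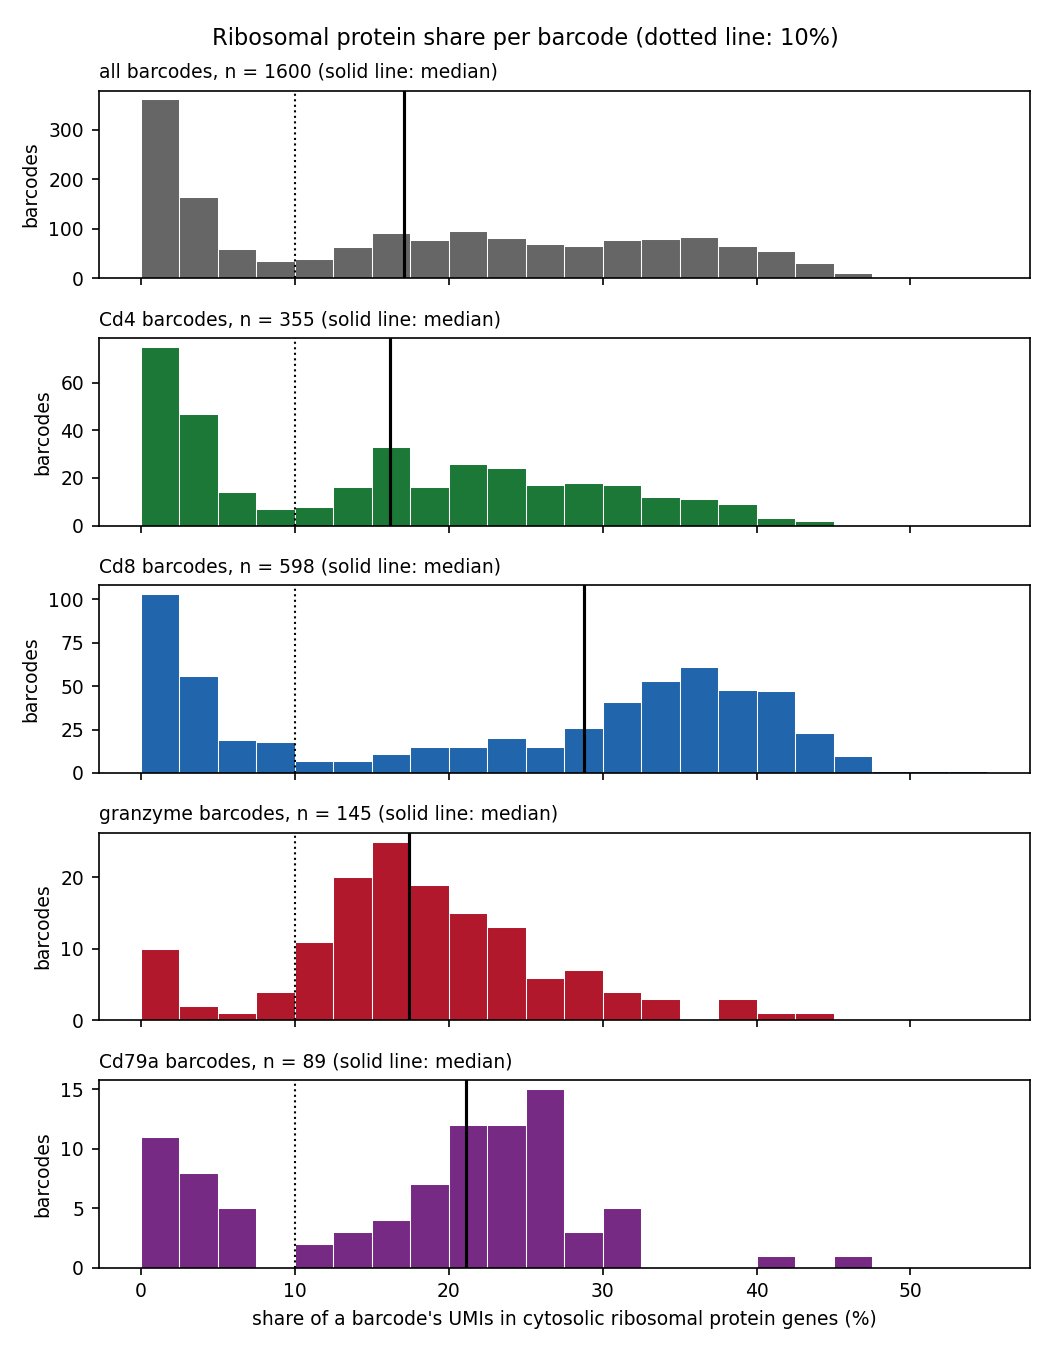
Number of barcodes (vertical axis) by the share of their UMIs in cytosolic ribosomal protein genes in steps of 2.5% (horizontal axis), for all 1600 barcodes and the 4 marker groups, with the median as a solid line and 10% as a dotted line. Most groups have a low set under 10% and a second mass above it, which sits highest in the Cd8 barcodes and lowest in the granzyme barcodes.

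Cd8 barcodes carried the largest ribosomal protein share of the 4 groups. It was 29.1% (29.1% to 29.2%) of their pooled UMIs, and the barcode median was 28.8%. In Cd4 barcodes it was 18.9% (18.84% to 18.97%) with a median of 16.2%, in granzyme barcodes 20.02% (19.93% to 20.10%) with a median of 17.4%, and in Cd79a barcodes 19.6% (19.5% to 19.7%) with a median of 21.1%. The ranges over barcodes overlapped almost fully, from 0.630% to 44.6% in the Cd4 group and from 0.691% to 53.1% in the Cd8 group. Low barcodes were found in 40.3% of the Cd4 group (35.1% to 45.6%), 32.8% of the Cd8 group (29.0% to 36.7%), 27.0% of the Cd79a group (18.1% to 37.4%) and 11.7% of the granzyme group (6.98% to 18.1%). These values are pooled over depth, and the order of Cd4 and Cd8 barcodes was reversed within bins of the UMI total, as given below. Among the barcodes with a share of at least 10%, the pooled shares were 25.5%, 34.7%, 21.3% and 23.4% in the Cd4, Cd8, granzyme and Cd79a groups.

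The Cd4 share was thus 0.650 times the Cd8 share (0.647 to 0.652), but the groups also differed in depth, with a median of 3355 against 5648 UMIs per barcode. Along the UMI total the share over all barcodes went from 9.38% in the 144 barcodes under 2000 UMIs to 9.08%, 12.9%, 22.3% and finally 33.2% in the 356 barcodes with at least 7000, a ratio of 3.54 between the end bins (3.50 to 3.59). That ratio was 10.6 for the barcode medians, 2.19 among clonotyped barcodes and 1.41 among barcodes with a share of at least 10%. The last value comes from a cut on the share itself, which narrows its range. The share of low barcodes went from 69.4% to 1.97% in the same bins. Within them it was 61.8%, 64.2%, 39.3%, 9.09% and 0% in Cd4 barcodes and 67.9%, 73.2%, 64.7%, 27.6% and 2.35% in Cd8 barcodes. Cd4 barcodes were thus less often low in each bin, with intervals that lay apart only from 3000 to under 7000 UMIs. Within these bins the Cd4 to Cd8 ratio of the ribosomal protein share was 1.03 (0.988 to 1.07), 1.11, 1.31 and 1.06 below 7000 UMIs. It was 0.818 (0.812 to 0.824) above, so that the pooled direction was seen in the highest bin only. A barcode's UMI total includes its ribosomal protein UMIs. In 5 bins of equal size by the UMIs of all other genes, the share still went from 13.3% to 30.7% (ratio 2.31), and the Cd4 to Cd8 ratio was 0.887, 1.0, 0.868, 0.919 and 0.673.

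The granzyme share was 0.688 times that of Cd8 barcodes (0.684 to 0.691) when pooled. Within the UMI bins that ratio was 0.149 over 3 granzyme barcodes, then 1.51, 1.34, 0.868 and 0.646, and by the UMIs of other genes it was 0.840, 1.16, 0.944, 0.709 and 0.653. Granzyme barcodes were therefore below Cd8 barcodes among the deep barcodes by either measure. The Cd79a share was 0.741 times that of Cd4 and Cd8 barcodes together (0.735 to 0.746), but the ratio of the barcode medians was 0.988. Within UMI bins it was 1.54, 1.06, 1.57, 0.936 and 0.675, the last over 4 Cd79a barcodes, and by the UMIs of other genes 1.01, 1.27, 1.18, 0.818 and 0.663, the last over 5. Depth and group cannot be told apart in these pooled ratios.

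**Figure D2:**
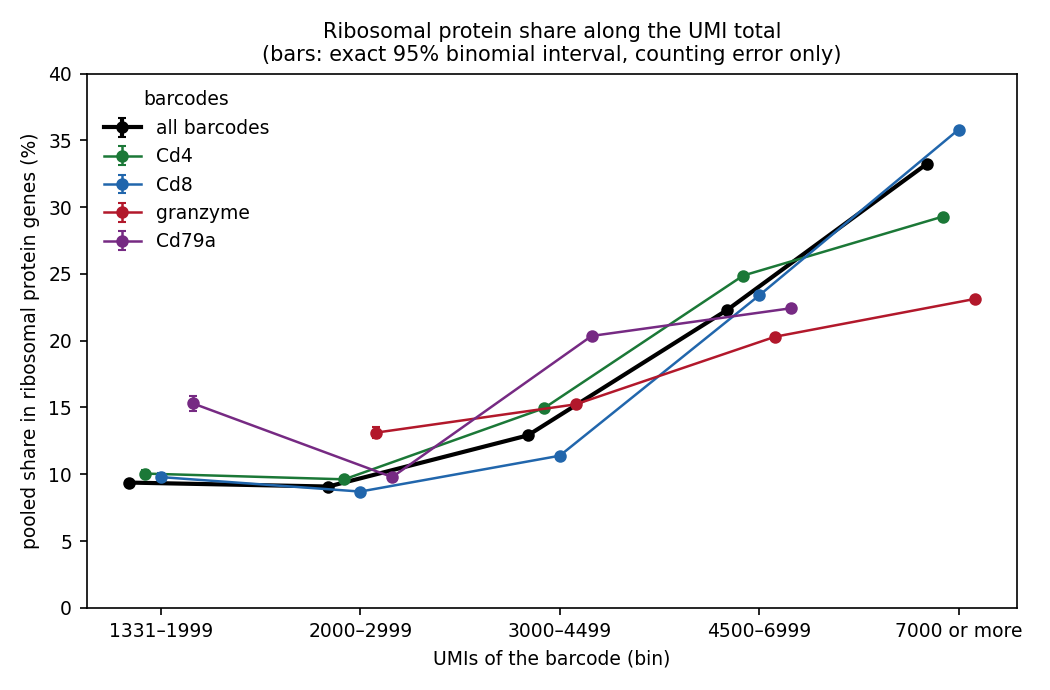
Pooled share of UMIs in ribosomal protein genes (vertical axis, %) in 5 bins of the barcode's UMI total (horizontal axis), for all barcodes and each group, with exact 95% binomial intervals, leaving out points with fewer than 10 barcodes. The line for all barcodes goes from 9.38% to 33.2%, and the Cd8 line lies below the Cd4 line under 7000 UMIs and above it from 7000.

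Member by member, the difference between Cd4 and Cd8 barcodes was shared by nearly the whole set. Levels are UMIs per 10000 UMIs of the group, and a gene was called higher when it was at least 25% higher and lower when it was at least 20% lower, which is the same fold in either direction. Of the 80 members with at least 200 UMIs over both groups, 78 were lower in Cd4 barcodes and none higher, while 10.5% of all 4114 genes tested were lower and 42.7% higher. The median member ratio was 0.659, against 1.19 over all genes. Rps24 was at 63.8 UMIs per 10000 in Cd4 barcodes and 93.0 in Cd8 barcodes, and Rplp0, the base of the stalk, at 33.7 and 56.4. The lowest member ratio was that of Rps12, with 15.3 (14.6 to 16.0) in Cd4 and 31.1 (30.6 to 31.7) in Cd8 barcodes. The members within that limit were the like-named Rpl36al at 6.07 against 7.13 and Rpl7l1 at 0.402 against 0.420. Counts by level restate the pooled share member by member, and so vary with depth as that share does.

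In granzyme barcodes 70 of 80 members were lower than in Cd8 barcodes (24.6% of all genes were), 1 was higher, Rps27l (34.1% of all genes were), and the median ratio was 0.699. Rps24 stood at 60.4, and Rps20 at 31.3 (30.1 to 32.5) against 64.6 (63.8 to 65.4) in Cd8 barcodes. Rpl13a was an exception at 28.5 (27.4 to 29.7) against 28.9 (28.3 to 29.4). In Cd79a barcodes 56 of 80 members were lower than in Cd4 and Cd8 barcodes together and 1 was higher, Rpl7l1, against 32% of all genes lower and 27.1% higher. Rplp0 was at 24.3 (22.7 to 26.0), below the Cd4, Cd8 and granzyme levels, whereas Rps24 was at 66.5. In the highest UMI bin all 79 members tested were higher than in the lowest (33.5% of all genes were).

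**Figure D3:**
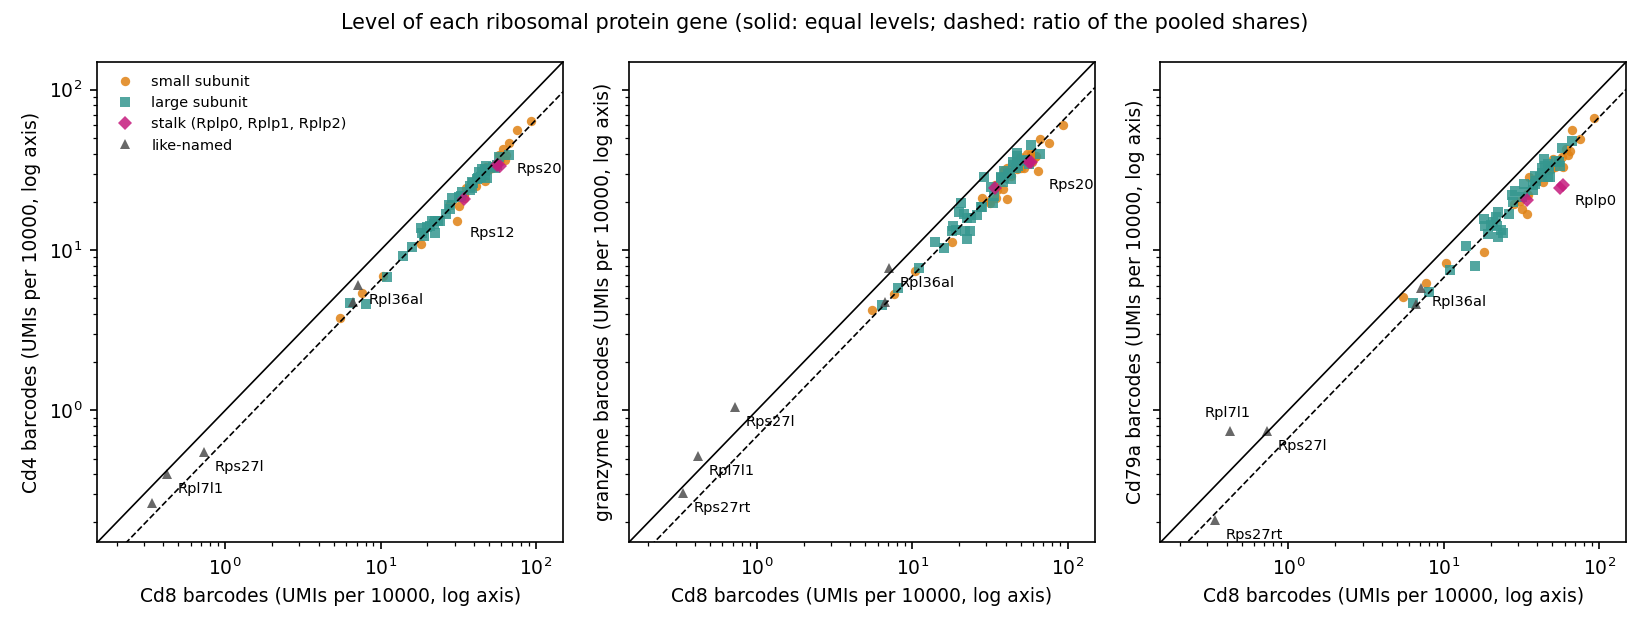
Level of each member with at least 200 UMIs in Cd8 barcodes (horizontal axis, UMIs per 10000, log axis) against Cd4, granzyme and Cd79a barcodes (vertical axes, same unit, log axes), with symbols for subunits, stalk and like-named genes. In each panel nearly all members lie along the dashed line of the pooled share ratio, below the solid line of equal levels, while Rplp0 and Rplp1 fall below the dashed line in Cd79a barcodes.

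Genes of the ribosome that the symbol rule leaves out followed the members between Cd4 and Cd8 barcodes, and less so in the other groups. The 4 genes of this kind on the list, among them Rpsa, Fau and Rack1, were all lower in Cd4 than in Cd8 barcodes, with ratios from 0.581 to 0.775. So were 13 of 16 listed genes of the TOP class, mostly translation factors, among them the elongation factors Eef1a1 (ratio 0.69) and Eef1b2 (0.62). None of the 16 was higher. That list was drawn up as the TOP class, to which the mRNAs of the members typically belong, so it was not chosen independently of them. Of all genes tested, 10.5% were lower in this comparison and 42.7% higher. In granzyme barcodes only 5 of the 16 were lower and 2 of the 4 other subunits, against 24.6% of all genes, and Fau stood at a ratio of 1.02. Against Cd4 and Cd8 barcodes together, 8 of the 16 and 2 of the 4 were lower in Cd79a barcodes and none higher. Of all genes 32% were lower there, and ratios of the other subunits reached 1.21. Of 34 mitochondrial ribosome genes tested, 20 were higher in granzyme than in Cd8 barcodes and 3 lower, against 34.1% of all genes higher. Their median ratio was 1.28, against 1.07 over the 3612 genes tested outside the members and 0.699 over the cytosolic members. Levels are shares of all UMIs, so a lower member share raises the other genes, and part of this contrast is built in. In Cd4 barcodes 11 of 33 mitochondrial ribosome genes were lower than in Cd8 barcodes and none higher, against 10.5% of all genes lower. Of the ribosome biogenesis list, 5 of 10 genes tested were lower in Cd4 than in Cd8 barcodes, such as Fbl, the rRNA methylase (0.61). Another 1 of the 10 was higher, with a ratio of 2.01. In granzyme barcodes 6 of 9 were lower than in Cd8 barcodes and none higher, against 24.6% of all genes lower. These lists also went with depth. All 4 other subunits and all 16 TOP class genes were higher in the highest UMI bin than in the lowest. So were 23 of 26 mitochondrial ribosome genes and 5 of 8 biogenesis genes, against 33.5% of all genes. No values within bins are given for these lists, so depth and group cannot be told apart in their pooled counts.

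Within the ribosomal protein pool the make-up, meaning each gene's share of the ribosomal protein UMIs, differed little between Cd4 and Cd8 barcodes. By the same limits 2 of 80 members were higher and 1 lower, while 23.8% of the 4034 other genes were higher and 17% lower when they were scaled to their own sum in the same way. Among genes with at least 2000 UMIs over both groups, where counting error is small, 2 of 78 members and 105 of 223 other genes were past a limit. To turn the Cd8 make-up into that of Cd4 barcodes, 3.001% of the ribosomal protein UMIs would have to change gene. The exceptions were Rps12, a small subunit protein, with 0.808% of the pool in Cd4 and 1.07% in Cd8 barcodes (ratio 0.756, 0.721 to 0.792), Rpl36al (1.31, 1.21 to 1.42) and Rpl7l1 (1.47, 1.06 to 2.01). The Rps12 difference was not the same at each depth. Its ratio was 1.03, 0.904 and 0.802 in the 3 deepest UMI bins, from the shallower to the deeper. That of Rpl36al was 1.22 (0.996 to 1.51), 1.07 (0.913 to 1.26) and 1.26 (1.09 to 1.45) in these bins.

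Granzyme barcodes differed more in make-up. Against Cd8 barcodes 5 of 80 members were higher (22.7% of other genes) and 3 lower (33.3% of other genes), and 5.04% of the UMIs would have to change gene. Higher were Rpl13a, a large subunit protein, with 1.42% of the pool against 0.991% (ratio 1.44, 1.375 to 1.502), Rpl27 with 0.981% against 0.710% (1.38, 1.31 to 1.46), and the paralogues Rps27l (2.09, 1.63 to 2.67), Rpl7l1 (1.79, 1.26 to 2.51) and Rpl36al (1.58, 1.45 to 1.72). Lower were Rps20 with 1.56% against 2.22% (ratio 0.704, 0.676 to 0.733), Rps19 (0.737, 0.701 to 0.774) and Rpl36a (0.755, 0.706 to 0.806). In contrast to Rps12 above, Rpl13a, Rpl27, Rpl36al, Rps20, Rps19 and Rpl36a stood on the same side of 1 in each of the 3 deepest UMI bins, with ratios of 1.49, 1.48 and 1.26 for Rpl13a, 1.33, 1.54 and 1.28 for Rpl27, and 0.612, 0.682 and 0.778 for Rps20. Rps19 was at 0.671, 0.696 and 0.825 in these bins. Rpl7l1 had too few UMIs for a value in any of them, and Rps27l for any but the deepest, where it was at 1.81 (1.24 to 2.57). Large subunit UMIs stood to small subunit UMIs as 1.28 in granzyme barcodes and as 1.2 in each of the other groups.

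In Cd79a barcodes the stalk stood out. Rplp0 made up 1.24% of the pool against 1.91% in Cd4 and Cd8 barcodes (ratio 0.650, 0.606 to 0.697), and Rplp1, 1 of the acidic proteins that bind to it, 1.29% against 1.96% (0.658, 0.614 to 0.704). Rplp2, the partner of Rplp1, stayed within the limits at 1.05% against 1.17% (0.899, 0.832 to 0.970). The stalk genes together made up 3.58% of the pool in Cd79a barcodes and 4.66% to 5.13% in the other groups. Along the UMI bins they made up 3.28%, 3.74%, 3.35%, 3.51% and 4.39% in Cd79a barcodes. The values were 4.65%, 4.46%, 4.69%, 4.97% and 5.13% in Cd4 and Cd8 barcodes together. Cd79a barcodes were thus lower in each bin, but the size of the gap varied, and the highest bin held 4 of them. Rps23, a protein of the decoding centre (0.732), Rpl5, which carries the 5S rRNA (0.737), and Rpl3 (0.792) were also lower. Altogether 5 of 80 members were lower (38.4% of other genes) and 3 higher (20.7% of other genes). Among the higher ones were Rpl7l1 with 25 UMIs (2.40, 1.52 to 3.64) and Rps27l, also with 25 UMIs, whose interval of 0.936 to 2.20 holds 1.

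Between the highest and the lowest UMI bin 4 of 79 members were higher in make-up (44.2% of other genes) and 6 lower (37.2% of other genes). Rps12 led with 1.11% against 0.697% (ratio 1.59, 1.36 to 1.87), followed by Rplp0 (1.31), Rpl34 (1.28) and Rps28, just past the limit. Rps15 was lowest (0.619, 0.519 to 0.744), and among the others were Rps27l (0.687, with 10 UMIs in the lowest bin and an interval of 0.369 to 1.45), Rpl31 (0.722), Rpl23a (0.735) and Rpl35a (0.784). With at least 2500 UMIs per barcode Rpl23a turned to 1.195 and Rps27l to 1.278, and Rps27l was also above 1 in clonotyped barcodes (1.316) and at a share of at least 10% (1.079). The count of 10 members past a limit became 5 with 2500 UMIs and 20 in clonotyped barcodes, of which the lowest bin held 34. The share of other genes past a limit is not given for these 2 choices. The changed counts are therefore not read as results about the members. The lowest bin held few ribosomal protein UMIs, for example 129 of Rps15, and most of its barcodes were in the low set.

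**Figure D4:**
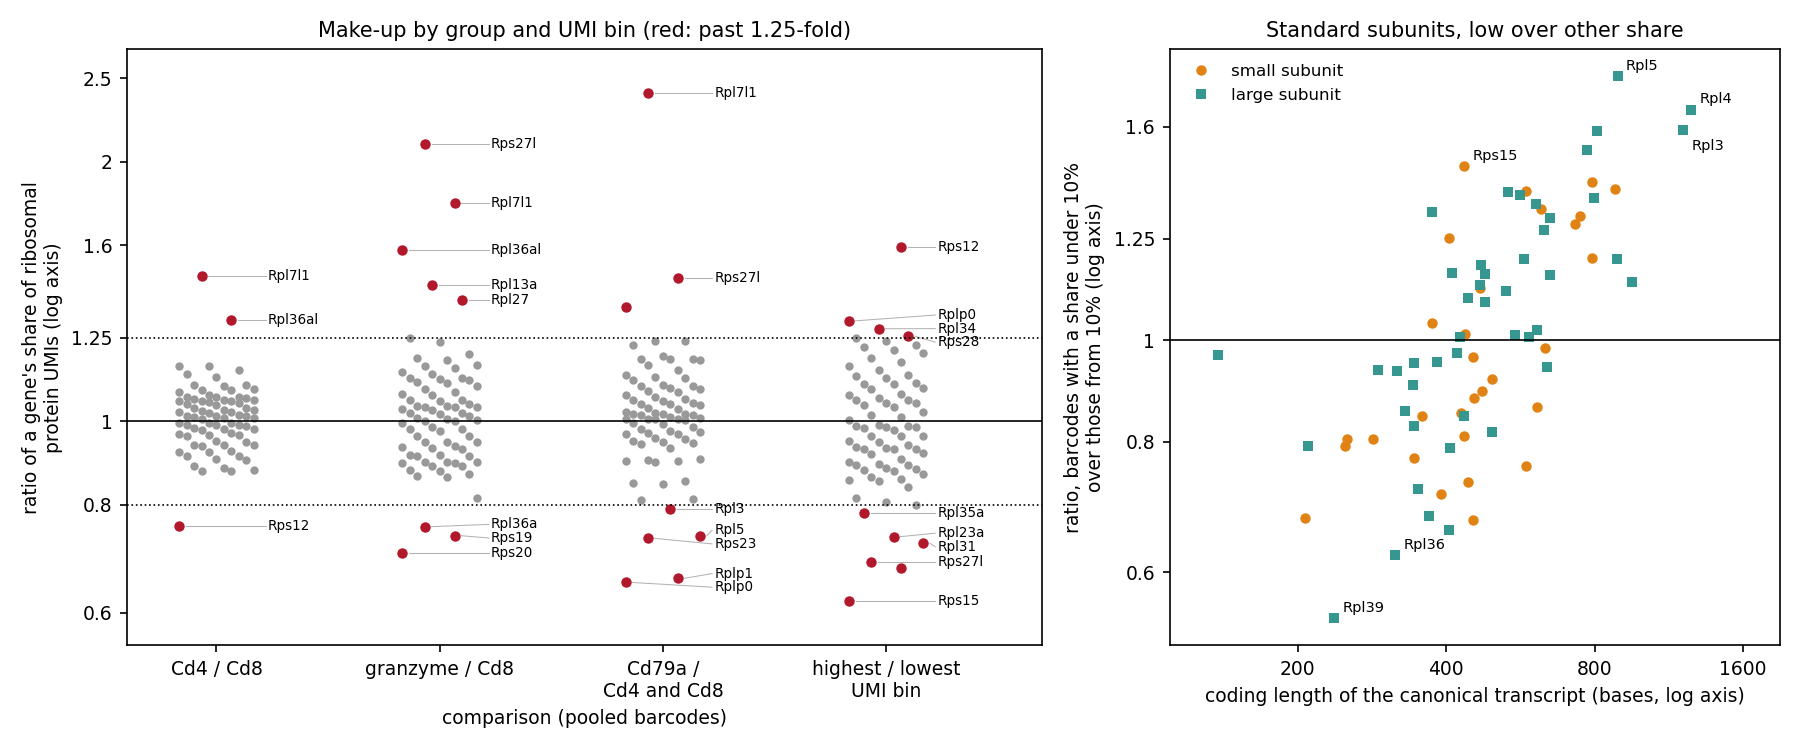
Left, ratio of each member's share of ribosomal protein UMIs between the groups named on the horizontal axis (log axis), with members past the limits in red and those described in the text named. Right, the same ratio for barcodes with a ribosomal protein share under 10% over those from 10% (log axis) against coding length in bases (log axis), for 76 standard subunits, where short Rpl39 and Rpl36 are lowest and long Rpl5, Rpl4 and Rpl3 highest.

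The largest change of make-up was between the low set and the other barcodes, where 10.3% of the UMIs would have to change gene. Since the barcodes were set apart by the members' summed share, the level itself is no finding here, but the make-up within it was not used for the split. Of 81 members 23 were higher in the low set (43.4% of other genes) and 15 lower (38.2% of other genes). The genes named here were chosen after their values had been seen. Higher were the large proteins Rpl5 (ratio 1.79, 1.63 to 1.95), Rpl4 (1.66, 1.48 to 1.86), Rpl3 (1.59, 1.47 to 1.72) and Rpl8 (1.52), and lower were the small proteins Rpl39 (0.542, 0.498 to 0.590), Rpl36 (0.623) and Rpl32 (0.659). Over the 76 standard subunits the ratio followed coding length, with Spearman's rho of 0.706 and Pearson's r of 0.693 on log2 values. The standard subunits called higher had a median of 690 coding bases and those called lower 360. The same rho was 0.735 within Cd4 barcodes and 0.676 within Cd8 barcodes, but between -0.0921 and -0.0144 for the 4 comparisons above. These are descriptions across genes of 1 library, and genes are not independent replicates. The relation was not particular to ribosomal proteins, since over 5571 other genes rho was 0.615, and 0.451 over the 2633 with up to 1300 coding bases. The make-up of free RNA was closer to the ordinary barcodes (3.696% of UMIs to move) than to the low set (11.7%).

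Rpl7l1, a relative of Rpl7 with a role in ribosome assembly, was the exception to the low set. Of all members tested there, it alone was not lower per UMI, with 0.439 UMIs per 10000 in the low set and 0.424 in the others (ratio 1.04, 0.799 to 1.33). Its part in the pool was 10.7-fold higher (8.25 to 13.7). That fold is no separate finding, since the split by member share gives it to any gene of level expression. Over the 5685 other genes tested the median ratio per UMI was 1.49, and 3264 of them were higher in the low set. Across barcodes its level hardly went with that of the other members (r = 0.0627 over the 1600 barcodes of the library). It rested on 341 UMIs, 83 of them in low barcodes.

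Paralogue pairs behaved in different ways. Rpl22l1 took 26.3% of the UMIs of Rpl22 and Rpl22l1 together, and its share lay between 24.7% and 27.3% in the 4 groups, with intervals that overlapped. Rpl36al in contrast took 24.1% (23.3% to 24.9%) of the pair with Rpl36a in Cd8 barcodes, 32.2% (30.4% to 34.1%) in Cd4, 32.7% (29.0% to 36.6%) in Cd79a and 39.9% (37.6% to 42.3%) in granzyme barcodes. In this pair the granzyme group lay above the Cd4 and Cd8 groups beyond counting error, with Rpl36al at 7.75 UMIs per 10000 against 7.13 in Cd8 barcodes and Rpl36a at 11.7 against 22.5. Rps27l, a p53 target, took 2.07% (1.67% to 2.55%) of its pair with Rps27 in granzyme barcodes and 1.08% (0.959% to 1.21%) in Cd8 barcodes. Rpl7l1 took 13.1% (10.5% to 15.9%) of its pair with Rpl7 in the low set and 2.18% (1.92% to 2.46%) in the others. Rps27rt, a retrocopy of Rps27, stayed between 0.370% and 0.615% of that pair in all groups.

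**Figure D5:**
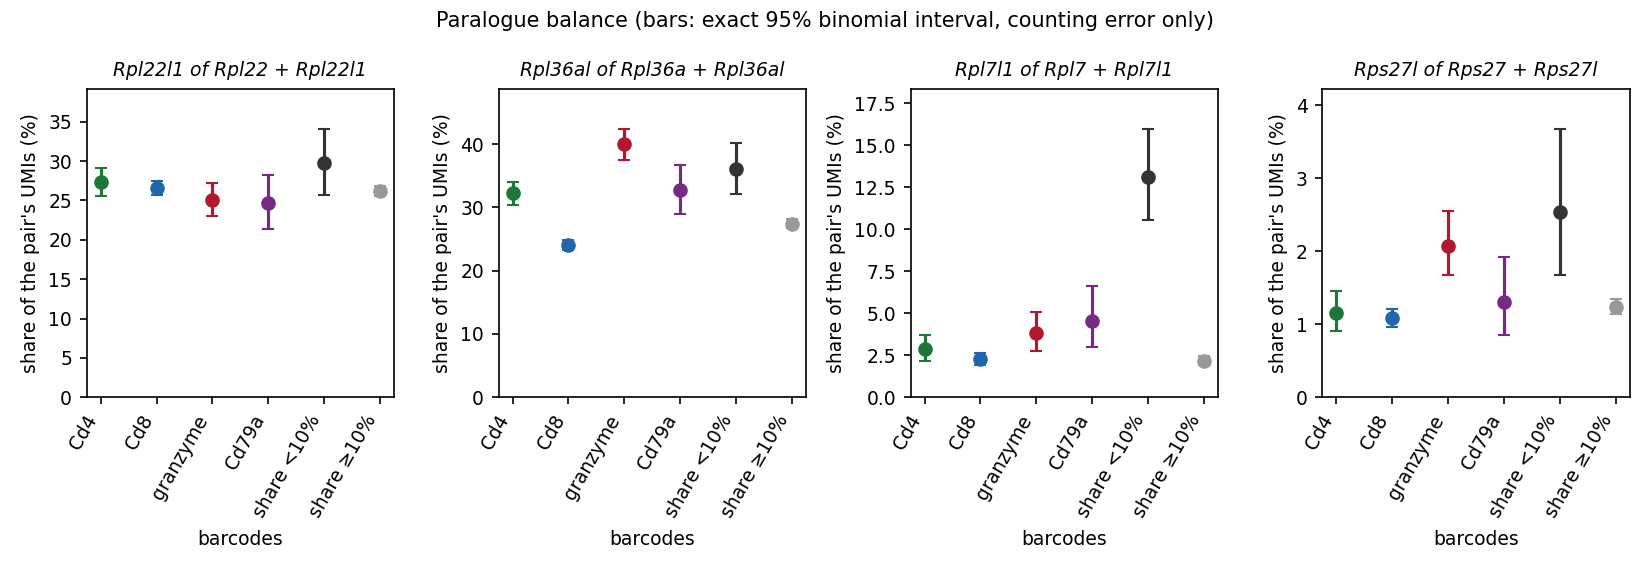
Share of the named paralogue in the UMIs of its pair (vertical axes, %) in the 4 groups and in barcodes with a ribosomal protein share under or from 10%, with exact 95% binomial intervals. Rpl22l1 is level over the groups at about 26.3%, while Rpl36al reaches 39.9% in granzyme barcodes and Rpl7l1 13.1% in barcodes of low share. Those barcodes were set apart by the members' share, so the Rpl7l1 value largely follows from that split.

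Some of these counts depend on how reads shared between copies were assigned, since reads that map to exons of more than 1 gene are not counted. In the GENCODE vM39 transcripts, 89.8% of the 91-base stretches of Rps27rt also occur in Rps27, and 58.9% of those of Rps27 in Rps27rt. Rpl10 shared 83.5% with the pseudogene Rpl10-ps3, Rpl9 76.8% with genes led by Rpl9-ps6, and Rpl36a 49.1% with Rpl36a-ps1. Rpl36al, Rpl7l1, Rps27l and Rpl22 shared none with another gene of the matrix, whereas Rpl22l1 shared 37.8% with Orc5, so its share of the pair with Rpl22 may be understated. In all, 30 of 85 members shared at least 1 stretch and 6 shared over 50%, so the levels of these members, Rps27, Rps18 and Rpl10a included, may be understated.

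From barcode to barcode the members moved together. Over the 1600 barcodes of the library, the correlation of a member's log level with that of all other members had a median of 0.887 for the 78 members with at least 2000 UMIs, with the highest value, 0.924, for Rps28. Among the barcodes with a share of at least 10% the median was 0.715, and a cut on the share lowers such values in part by itself. All these values share the barcode's depth. Within the pool the median over these 78 members was 1.47 times the variance that counting alone gives. The median of their spread beyond counting was 11.9%. By this multiple of the counting variance Rpl3l (5 UMIs) and Rpl7l1 (5.34 times) stood highest, and Rps9 (2.47) and Rps20 (2.06) were also among the 5 highest. The multiple depends on a gene's counts as well as on its spread. In spread beyond counting Rps9 was at 12.5%, while Rpl22l1 was highest of the 78 members at 34.4%. Rps12 had a spread of 29.97% beyond counting, against 10.9% for Rps24. The multiple of the counting variance came to 1.45 for Rps9 in the barcodes with a share of at least 10%, while Rps20 stood at 2.64 there. Rpl7l1 came to 1.47 and Rpl3l to 0.569 in the same barcodes. The median there was 1.44 over the 78 members with at least 2000 UMIs.

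Outside the members, the genes whose level went most with the ribosomal protein share were mostly parts of the same machinery. Of 410 other genes with at least 2000 UMIs, Rpsa led with a correlation of 0.834, and the leading 10 also held Tpt1 (0.824), Gm11808, Fau, Eef1b2, Eef1a1, Rack1, Tmsb10 and Naca (0.763). At the other end stood Dock2 (-0.637), Arhgap15 (-0.585), Ankrd44 (-0.534), Ccnd3 (-0.532) and Zbtb20 (-0.528). Among the barcodes with a share of at least 10% the negative values were weaker, from -0.403 for Dock2 to -0.209 for Zbtb20. In those barcodes Rpsa was at 0.776, Tpt1 at 0.690, Naca at 0.472 and Tmsb10 at 0.357. They were picked by the share itself, which narrows its range, so weaker values of either sign are partly built in. Dock2, a guanine nucleotide exchange factor of lymphocyte migration, had 70.5 UMIs per 10000 in the low set and 10.2 in the other barcodes. Shares within a barcode are tied to each other, so negative values are partly built in.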

How the data were processed

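Gene expression and T cell receptors of blood T cells from 1 mouse were read with a 10x Genomics kit. The authors deposited unfiltered, raw UMI counts for all barcodes, which Cell Ranger 4 made per the file headers, with GRCm38 named in the submitters' processing notes, and a table of T cell receptor contigs with read and UMI counts, used here only for whether a barcode has a clonotype.

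UMI counts were summed over barcodes with more UMIs than a limit of about 1300 and compared as shares in Python 3.11.15 (NumPy 2.4.6, SciPy 1.17.1, pandas 2.3.3), with exact binomial, Poisson or conditional binomial intervals at 95%. The ratios were tested on simulated counts first. Genes needed 200 UMIs over both groups, and a gene was called at 25% higher or 20% lower. Groups are marker UMIs, not clusters, so a barcode can lack a marker by depth. Doublets were not called. Spread over barcodes was taken from Pearson residuals of a member's UMIs around its share of the barcode's member UMIs, and correlations used the natural log of 1 plus UMIs per 10000. Named genes were the 10 members with most UMIs and the 5 highest and 5 lowest make-up ratios of each group or depth comparison. Of these ratios the text gives those past the limits. Also named were the 5 members with the largest variance relative to counting and the paralogue pairs. The 10 other genes most and the 5 least correlated with the share were named too. The members and gene lists were chosen with earlier results of these data known. Shared sequence came from GENCODE vM39 transcripts, whose genome build is later than that of the files, and no coordinate was taken from it. Rps4l, the partner of Rps4x, was not analysed here. Each alternative changed 1 choice: 2500 or 500 UMIs per barcode, overlapping groups, 2 marker UMIs, a share of at least 10%, clonotyped barcodes, medians, standard subunits, free RNA subtracted at 5%, 50 UMIs per gene, or a fold of 1.5. Values within UMI bins and bins by other genes' UMIs were added after seeing the data. Some of the genes that this rule names are not reported here.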

Additional observations from a re-analysis of the deposited data

Results flagged for a closer look

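Signal of the ribosomal protein genes also appeared in barcodes and genes that the comparisons did not use. In the barcodes with at least 200 and under 500 UMIs the members took 4.81% of the UMIs, and in those from 500 UMIs up to the limit 4.15%, both below the 15.7% of the free RNA in barcodes with 10 to 50 UMIs. Of the processed pseudogenes that the symbol rule leaves out, Rpl9-ps6 had 129 UMIs, Rpl10-ps3 had 113 and Rpl36a-ps1 had 26, each above the 3 counts that a count of 0 allows.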

How the results depend on the processing

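The ratios of the shares of Cd4 over Cd8, granzyme over Cd8 and Cd79a over Cd4 and Cd8 barcodes went above 1 only within bins of UMIs, given below. Otherwise they were 0.6829, 0.6791 and 0.755 with at least 2500 UMIs per barcode, 0.698, 0.7248 and 0.8154 with overlapping groups, 0.6555, 0.62 and 0.7047 with 2 marker UMIs, 0.7342, 0.6134 and 0.7179 at a member share of at least 10%, 0.6717, 0.64 and 0.6468 in clonotyped barcodes (all Cd79a barcodes kept), 0.5612, 0.6056 and 0.9877 by medians, and 0.6398, 0.679 and 0.7324 with free RNA subtracted. With 500 UMIs Cd4 over Cd8 was 0.646, and with standard subunits the other 2 were 0.6929 and 0.7466. Within the 5 UMI bins, chosen after seeing the data, the ratios were 1.027, 1.105, 1.312, 1.064 and 0.8179 for Cd4, 0.1493, 1.507, 1.338, 0.8678 and 0.6457 for granzyme, and 1.541, 1.058, 1.567, 0.9362 and 0.6753 for Cd79a. Within 5 bins by the UMIs of other genes, also chosen after seeing the data, they were 0.8868, 1.003, 0.8681, 0.9188 and 0.6733 for Cd4, 0.8398, 1.159, 0.9444, 0.7092 and 0.6533 for granzyme and 1.01, 1.268, 1.182, 0.8176 and 0.6628 for Cd79a. The ratio of the highest to the lowest UMI bin was 3.474 with 2500 UMIs, 4.993 with 500, 1.405 at a share of at least 10%, 2.186 in clonotyped barcodes, 10.63 by medians, 3.777 with free RNA subtracted and 2.31 by the UMIs of other genes, also chosen after seeing the data. Members past a fold of 1.5 in make-up were 0, 3, 3 and 2 in the Cd4, granzyme, Cd79a and UMI bin comparisons. At the limits used in the Results, 3 members were higher and 5 lower in Cd79a barcodes, and with overlapping groups 3 members in all were past a limit. Between the UMI bins 4 were higher and 6 lower at those limits. In all, 5 were past a limit there with 2500 UMIs and 20 in clonotyped barcodes, of which the lowest bin held 34. Counts under these other choices are given without the share of other genes past the same limit. They show only how far the count depends on the choice. Of 253 alternatives for single named members 235 moved little, 14 moved and 4 turned, all between UMI bins: Rpl23a was 1.195 with 2500 UMIs, and Rps27l 1.278 with 2500 UMIs, 1.079 at a share of at least 10% and 1.316 in clonotyped barcodes. The cause was not tested. With 1 library, no replicate could be left out. No paired analysis was possible because there is 1 sample. Depth limits the rare members most.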
